A study of Mus musculus with 32 samples.

Results

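The comparison described here is the response of the striatum of R6/2 mice to NVP-HSP990 (HSP990), an orally given inhibitor of the molecular chaperone HSP90. It takes the 8 arrays labelled as R6/2 with HSP990 against the 7 labelled as R6/2 with vehicle, 15 of the 32 arrays of the series. The R6/2 line is a transgenic mouse model of Huntington's disease with a transgene for the start of human huntingtin, driven by the human promoter and holding an expanded CAG repeat, so the model expresses a short mutant protein beside the mouse's own Htt. All mice of both groups carried the transgene, were male and 12 weeks old on a CBA X C57Bl/6 background, and were dosed by oral gavage. The treated mice received 12 mg/kg HSP990 as a suspension and the controls the suspension vehicle, and the striatum was taken 4 h later. The other arrays are wild-type (WT) mice of the same age, 10 with HSP990 and 7 with vehicle, and are used here for the estimate of spread and for the test of a difference between genotypes. The labels name no animals, so each array was taken as a separate mouse and p-values measure the spread between these arrays. The question the comparison addresses is which transcripts respond to HSP90 inhibition in a brain region that is already affected by mutant huntingtin.

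HSP90 holds many signalling proteins in a form that can be activated, among them the glucocorticoid receptor and several kinases. It also keeps the heat shock transcription factor inactive, and cells in which HSP90 is inhibited are known to switch on the heat shock response, in which that factor binds heat shock elements and raises the transcription of HSP70, HSP40, the small heat shock proteins and their helpers. HSP70 and HSP40 bind and refold unfolded proteins, HSP110 exchanges the nucleotide of HSP70, small heat shock proteins hold unfolded proteins in solution, and the chaperonins HSP60 (with HSP10) and TRiC fold proteins inside a closed chamber. The principal cells of the striatum are the medium spiny neurons, which carry dopamine receptors and lose part of their transcript repertoire in this model.

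The heat shock element was searched as a 13-letter form, which reads GAA, any 2 letters, TTC, any 2 letters and GAA, or as the reverse complement of that form. Its 8-letter parts, GAA and TTC in either order with any 2 letters between them, are each their own reverse complement, and every 13-letter match holds both. Both strands were searched in windows from 250 bases before to 50 bases after the start of each gene, which were found for 14367 of the 18193 genes tested (RefSeq, GRCm38.p6). The promoters of 5 chaperone genes that rose are shown because they carry the 2 forms in different arrangements, with the matching letters in capitals, from 5′ to 3′ on the strand of the gene.
Hspb1 (chr5:135887669-135887968, + strand): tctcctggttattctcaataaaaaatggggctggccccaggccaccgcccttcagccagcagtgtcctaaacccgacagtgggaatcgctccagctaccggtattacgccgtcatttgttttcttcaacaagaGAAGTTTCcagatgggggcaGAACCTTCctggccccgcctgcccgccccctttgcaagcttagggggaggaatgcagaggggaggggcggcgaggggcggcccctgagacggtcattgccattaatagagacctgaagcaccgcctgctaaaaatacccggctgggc
Hspa1b (chr17:34959189-34959488, - strand): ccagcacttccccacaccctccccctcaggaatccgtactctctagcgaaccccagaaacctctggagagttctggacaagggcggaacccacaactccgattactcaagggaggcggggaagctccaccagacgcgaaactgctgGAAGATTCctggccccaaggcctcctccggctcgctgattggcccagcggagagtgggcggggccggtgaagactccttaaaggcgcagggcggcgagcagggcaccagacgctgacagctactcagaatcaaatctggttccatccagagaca
Hsph1 (chr5:149636266-149636565, - strand): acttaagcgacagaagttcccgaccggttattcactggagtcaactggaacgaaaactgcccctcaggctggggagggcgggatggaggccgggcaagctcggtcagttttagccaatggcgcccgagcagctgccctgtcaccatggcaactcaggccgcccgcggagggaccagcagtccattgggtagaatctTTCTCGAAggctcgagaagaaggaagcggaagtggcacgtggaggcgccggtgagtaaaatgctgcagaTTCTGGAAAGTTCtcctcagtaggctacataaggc
Chordc1 (chr9:18292017-18292316, + strand): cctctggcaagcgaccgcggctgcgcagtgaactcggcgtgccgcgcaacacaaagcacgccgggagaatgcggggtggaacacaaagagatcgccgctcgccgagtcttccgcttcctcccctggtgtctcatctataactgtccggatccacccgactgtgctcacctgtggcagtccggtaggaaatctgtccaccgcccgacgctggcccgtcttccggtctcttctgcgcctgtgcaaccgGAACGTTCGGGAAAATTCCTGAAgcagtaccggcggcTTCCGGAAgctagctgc
Hspe1 (chr1:55087898-55088197, + strand): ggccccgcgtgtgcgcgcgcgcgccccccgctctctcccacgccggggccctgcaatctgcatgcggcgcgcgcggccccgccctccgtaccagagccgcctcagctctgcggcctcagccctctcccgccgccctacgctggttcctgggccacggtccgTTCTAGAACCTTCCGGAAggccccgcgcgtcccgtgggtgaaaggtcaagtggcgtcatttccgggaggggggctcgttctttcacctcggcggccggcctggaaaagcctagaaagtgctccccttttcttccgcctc

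Hspb1 held 2 separate 8-letter matches, beginning 117 and 97 bases before the annotated start, and Hspa1b held 1, beginning 104 bases before it. Hspa1a, the neighbouring copy of Hspa1b, held the same 8 letters at the same distance. Chordc1 held a run of 23 letters in which 3 matches to the 13-letter form overlap, and an 8-letter match past the start. Hspe1 held a run of 18 letters with 2 such matches. Hspd1 stands head to head with Hspe1 on chromosome 1, and its window holds the same run read from the opposite strand. In Hsph1 an 8-letter match begins 54 bases before the annotated start and a 13-letter match lies past it. Of the 27 rising members of the 6 chaperone lists described below, 23 had a window. Of these 23, 4 (17.4%) held the 13-letter form and 15 (65.2%) an 8-letter form. Hspe1 and Hspd1, which share a run, and the copies Hspa1a and Hspa1b were each counted as separate genes. Among all tested genes with a window the shares were 0.613% (88 genes) and 15.0%, among the 330 rising genes with a window 2.42% and 21.2%, and among the 130 falling genes 0 genes and 11.5%. Of the 61 chaperone list members with a window that were not called as rising, 1 held the 13-letter form and 18.0% an 8-letter form. Of the rising members, Dnajb1, Ahsa1, Ahsa2, Hspa4l, Hspa1l, Cct7, Cct3 and Tcp1 held neither form in these windows. A match is a description of letters and shows no binding, and the absence of one speaks only for these windows.

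Expression is given as the deposited log2 value, on which a difference of 1 is a doubling, and each gene is represented by its brightest probe set. The values of the 32 arrays ran from 2.15 to 14.7 with array medians of 5.73 to 5.78, and arrays give no read depth, so their number limits the precision. Genes with a mean over all arrays no higher than 5.76, the median probe set, are called dim. Several R6/2 arrays stood apart. The difference between 3' and 5' probe sets of the control transcript Gapdh, which grows as RNA is broken, was 5.01 log2 units in HSP990 replicate 5, with the other treated arrays between 0.258 and 1.53, and 1.46 in vehicle replicate 1, with the remaining vehicle arrays between 0.160 and 0.519. Vehicle replicate 7 had raised Hspa1a and Hspa1b. The mean over 10 markers of cortical excitatory neurons ran from 6.57 to 8.50 with HSP990 and from 6.69 to 8.80 with vehicle, and was above 8 in HSP990 replicates 5 and 6 and vehicle replicates 4 and 7. The mean over 29 medium spiny neuron markers was 9.34 to 10.18 with HSP990 and 9.10 to 10.40 with vehicle, so the defining markers of the labelled tissue were present in every array. The probe sets for Htt detect the mouse gene and do not check the transgene. Htt measured 8.26, 8.66 and 8.94 (lowest, median and highest) with HSP990 and 8.07, 8.32 and 9.01 with vehicle, a difference of 0.27 ± 0.14 (SE of the limma fit) with an adjusted p of 0.345.

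HSP990 changed 563 of 18193 genes in R6/2 striatum at an adjusted p under 0.05 (3.09% of the genes tested, limma with Benjamini-Hochberg adjustment). Of these, 396 rose (2.18%) and 167 fell (0.918%). Most changes were small. The median fold was 1.34 in each direction, and 13 genes rose and 5 fell at least 2-fold, while 85 rose and 40 fell at least 1.5-fold. The treated and vehicle arrays did not overlap for 88 of the rising genes and 27 of the falling genes, against 0.5% of all genes with every treated array above every vehicle array and 0.17% with every treated array below. Dim genes made up 86 of the 563 called genes. Their share among all genes tested was not counted, so this does not show whether dim genes were called more or less often. The median change over all genes was 0.02.

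The calls depended on the spread assumed and on single arrays. In a fit of the 15 R6/2 arrays alone 151 genes rose and 51 fell, of which 149 and 51 were among the genes called with all arrays. Without vehicle replicate 7 the counts were 217 and 92, without vehicle replicate 1 they were 736 and 307, and without HSP990 replicates 1 or 3 the falling genes numbered 110 and 105. With the 3' difference of each array as a covariate 226 genes rose and 142 fell. There were 199 rises and 71 falls that were called in each of the 15 fits that left out a single R6/2 array.

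**Figure D1:**
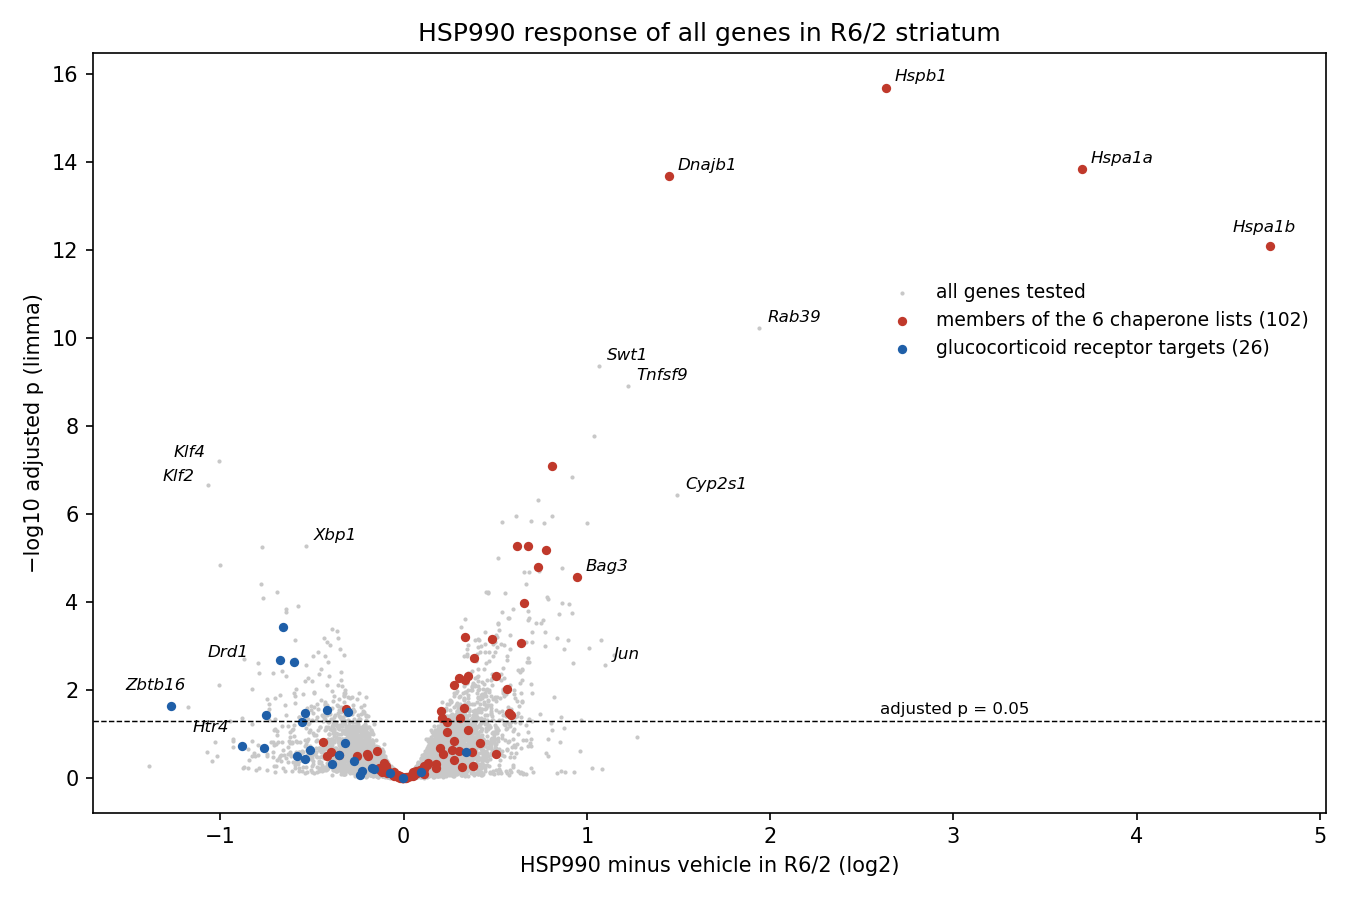
Change of every gene with HSP990 in R6/2 striatum (horizontal axis, log2, HSP990 minus vehicle) against the −log10 of its adjusted p (vertical axis), each point a gene, with the 102 measured members of the 6 chaperone lists in red and the 26 glucocorticoid receptor targets in blue. The chaperone genes Hspb1, Hspa1a, Dnajb1 and Hspa1b have the smallest adjusted p among the rises, and Klf2 and Klf4 the smallest among the falls. Rab39 and Cyp2s1, which are in neither coloured set, rose more than Dnajb1.

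The largest rises among the named genes were those of the cytosolic chaperones Hspa1b, Hspa1a and Hspb1. Of the 102 measured genes in 6 lists of chaperones and co-chaperones 27 rose and 1 fell, with a median change of 0.08 over all 102 and 63 positive changes, against 2.18% rising genes and a median of 0.02 over all genes. Averaged over these 27 genes, which were picked by their rise so that some separation is built in, each treated array stood between 0.69 (replicate 4) and 1.05 (replicate 7) above the vehicle mean, while the vehicle arrays lay between -0.10 and 0.07 of it. The fit of R6/2 arrays alone called 16 of the 102 as rising, and without HSP990 replicate 5 or vehicle replicate 7 the count was 22 and 21. The members were chosen with their known role and earlier results in view, so the count describes the lists and is no independent test of them.

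Among the cytosolic HSP70 and HSP110 genes, 6 of 12 rose. Hspa1b, an inducible HSP70, measured 11.99, 12.26 and 12.81 in the treated arrays (lowest, median and highest) and 6.94, 7.33 and 9.52 in the vehicle arrays. The lowest treated array was above the highest vehicle array, which was replicate 7, and the other vehicle arrays ended at 7.44. Its change was 4.73 ± 0.30 (SE), a 26.5-fold rise (adjusted p = 8.4e-13), and 5.05 without vehicle replicate 7. Hspa1a, the second inducible HSP70, measured 9.81, 10.26 and 10.64 with HSP990 and 6.01, 6.31 and 7.82 with vehicle, a change of 3.70 ± 0.20 and 13-fold (adjusted p = 1.5e-14). These 2 genes are near-identical copies, and how well their probe sets separate them was not tested.

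The other HSP70 family members moved far less. Hsph1, which encodes HSP110, measured 11.84, 12.06 and 12.40 with HSP990 and 11.06, 11.29 and 11.45 with vehicle, without overlap, and rose by 0.81 ± 0.08 (1.75-fold, adjusted p = 8.0e-08). Hspa4l, a related nucleotide exchange factor, rose by 0.50 ± 0.11 (adjusted p = 0.0049). Hspa8, the constitutive HSP70 and the brightest chaperone gene of the list, measured 13.82 to 14.00 with HSP990 and 13.47 to 13.89 with vehicle, and its rise of 0.21 ± 0.06 (adjusted p = 0.044) was lost in 11 of the 15 fits that left out an array. The dim gene Hspa1l rose by 0.31 (adjusted p = 0.044), a call lost in 9 of those fits. Hspa4 was not called, with a change of 0.04 (adjusted p = 0.878). The fit of R6/2 arrays alone called 3 of the 12.

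Of the 15 small heat shock proteins and BAG factors, 3 rose and 1 fell. Hspb1, which encodes the small heat shock protein HSP25, had the smallest adjusted p of all genes. It measured 10.36, 10.84 and 10.92 with HSP990 and 7.82, 8.14 and 8.29 with vehicle, so the groups were separated by more than 2 log2 units. The change was 2.63 ± 0.12, or 6.21-fold (adjusted p = 2.1e-16). Bag3, a nucleotide exchange factor that couples HSP70 and small heat shock proteins to autophagy, measured 7.41, 8.00 and 8.44 with HSP990 and 6.57, 7.00 and 7.27 with vehicle, and rose 1.93-fold (0.95 ± 0.13, adjusted p = 2.7e-05). Cryab, the small heat shock protein alpha B-crystallin, rose by 0.59 ± 0.16 with overlapping groups (adjusted p = 0.036), a call lost in 9 of the 15 fits that left out an array. Bag5 fell by 0.31 (adjusted p = 0.027), and 6 of those fits lost the call. Hspb8, a partner of BAG3, was not called (0.27 ± 0.15, adjusted p = 0.384).

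HSP40 proteins deliver clients to HSP70, and 4 of 19 rose. Dnajb1, the heat-inducible member, measured 11.54, 11.68 and 11.87 with HSP990 and 9.92, 10.29 and 10.48 with vehicle, with no overlap, and rose 2.73-fold (1.45 ± 0.08, adjusted p = 2.2e-14). Dnaja1 measured 12.06, 12.45 and 12.60 with HSP990 and 11.05, 11.75 and 11.93 with vehicle. It rose 1.67-fold (0.74 ± 0.10, adjusted p = 1.7e-05), with vehicle replicate 1 at the lowest value. Dnaja4 (0.56 ± 0.13, adjusted p = 0.0094) and Dnajb4 (0.57 ± 0.15, adjusted p = 0.034) rose with overlapping groups, and the call of Dnajb4 was lost in 7 of the 15 fits without an array. The median over the 19 genes was -0.01, and the fit of R6/2 arrays alone called 2 of them, as did the mean of all probe sets of a gene.

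Of 25 genes of HSP90 and its co-chaperones 5 rose, all of them co-chaperones. Fkbp4, an immunophilin that escorts steroid receptors on HSP90, measured 8.99, 9.43 and 9.62 with HSP990 and 8.44, 8.63 and 9.01 with vehicle, overlapping by the lowest treated array alone, and rose 1.60-fold (0.68 ± 0.09, adjusted p = 5.3e-06). Chordc1, a co-chaperone of HSP90, measured 10.01 to 10.72 with HSP990 and 9.43 to 9.82 with vehicle and rose 1.71-fold (0.78 ± 0.10, adjusted p = 6.7e-06). Ahsa1 and Ahsa2, activators of the HSP90 ATPase, rose by 0.65 and 0.64 without overlap (adjusted p = 0.00011 and 0.00088). St13, which links HSP70 to HSP90, rose by 0.34 ± 0.06 (adjusted p = 0.00062). Hsp90aa1, the inducible HSP90, changed by 0.24 ± 0.07 with an adjusted p of 0.053, and Stip1, the adaptor between HSP70 and HSP90, by 0.38 ± 0.26 (adjusted p = 0.519). Hsp90ab1 was not analysed here.

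Subunits of the folding chambers rose by less than 1 log2 unit. Hspe1 and Hspd1, the mitochondrial chaperonins HSP10 and HSP60, rose by 0.62 ± 0.08 and 0.48 ± 0.09 (adjusted p = 5.3e-06 and 0.00069). Hspe1 measured 11.27, 11.48 and 11.65 with HSP990 and 10.76, 10.81 and 11.08 with vehicle, without overlap, whereas Hspd1 had a treated array at 10.96 under the highest vehicle array at 11.00. Hspa9, the mitochondrial HSP70, rose by 0.33 ± 0.07 (adjusted p = 0.0058), and 13 of the 16 mitochondrial chaperones and proteases were not called. Of 15 TRiC and prefoldin genes 6 rose, all of them subunits of TRiC, by 0.20 (Cct2) to 0.39 (Cct7). Cct7 measured 11.20 to 11.66 with HSP990 and 10.85 to 11.30 with vehicle (adjusted p = 0.0019). The fit of R6/2 arrays alone called 2 of these 6, and Cct2 and Cct3 lost the call in 7 and 3 of the 15 fits without an array.

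**Figure D2:**
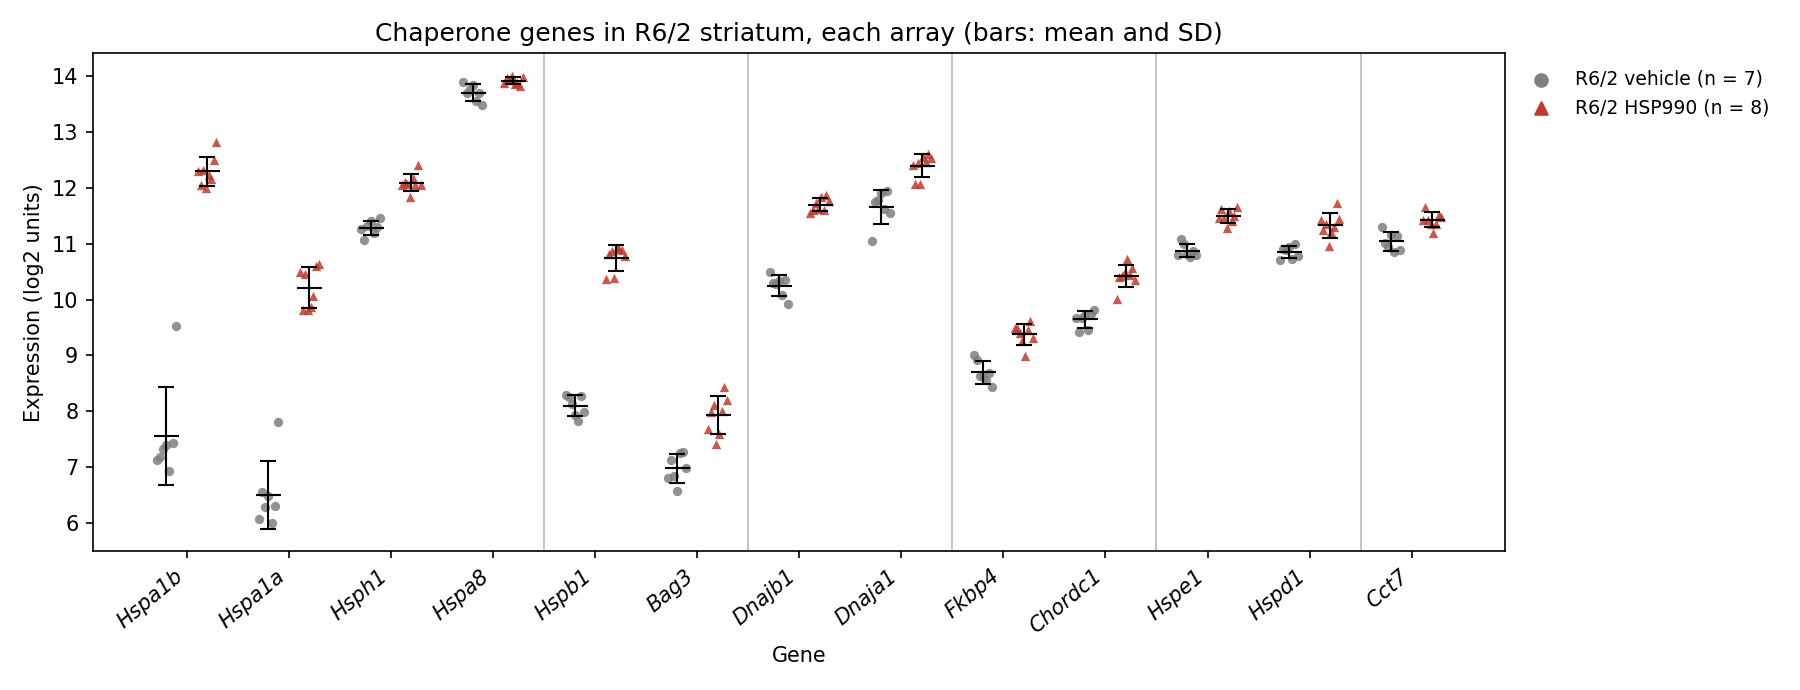
Log2 expression (vertical axis) of 13 chaperone genes in each R6/2 array, with vehicle as grey circles (7 arrays) and HSP990 as red triangles (8 arrays), and black bars for the mean and SD. Every treated array lies above every vehicle array for Hspa1b, Hspa1a, Hspb1, Dnajb1, Hsph1, Bag3, Dnaja1, Chordc1 and Hspe1, and the vehicle array at 9.52 for Hspa1b and 7.82 for Hspa1a is replicate 7.

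Of 28 chaperones of the endoplasmic reticulum (ER) and genes of the XBP1 branch 5 fell and 1 rose, with a median of -0.07. Xbp1, the transcription factor that drives ER chaperone genes, measured 10.48, 10.72 and 11.00 with HSP990 and 11.12, 11.23 and 11.53 with vehicle. All treated arrays were below all vehicle arrays, and the fall was 1.45-fold (-0.53 ± 0.07, adjusted p = 5.3e-06). Manf, an ER stress-induced secreted factor, fell by 0.45 ± 0.09 (adjusted p = 0.0033), with vehicle replicate 1 at 9.24 as the lowest vehicle array. Hspa5, the ER HSP70 known as BiP, measured 11.00, 11.21 and 11.39 with HSP990 and 11.38, 11.50 and 11.75 with vehicle and fell by 0.32 ± 0.08 (adjusted p = 0.025), a call lost in 2 of the 15 fits without an array. Pdia6, a disulfide isomerase, and Sdf2l1, an ER chaperone component, fell by 0.41 and 0.43 (adjusted p = 0.033 and 0.046), and the call of Pdia6 was lost in 6 of those fits. Syvn1, a ubiquitin ligase of ER-associated degradation, rose by 0.29 (adjusted p = 0.012). Hsp90b1, the HSP90 of the ER, was not called at -0.20 (adjusted p = 0.196). Without HSP990 replicate 5, the array of the high Gapdh difference, 2 ER genes fell in place of 5, and the same count was found with the 3' difference as a covariate and without vehicle replicate 3. Without HSP990 replicate 4 or vehicle replicates 4 or 7, and in the fit of R6/2 arrays alone, 3 fell. The part of RNA quality in these falls was not tested further.

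Genes of the integrated stress response, the program of translation control that works through the factor ATF4, rose in part. Of 24 genes 6 rose, none fell and the median was 0.14. Chac1, an enzyme that degrades glutathione, measured 7.35, 7.95 and 8.51 with HSP990 and 6.65, 7.02 and 7.22 with vehicle, without overlap, and rose 1.89-fold (0.92 ± 0.15, adjusted p = 0.00018). Sesn2, a stress-induced regulator of growth signalling, rose by 0.68 ± 0.11 (adjusted p = 0.00026). Mthfd2, an enzyme of mitochondrial folate metabolism, measured 7.09, 7.17 and 7.74 with HSP990 and 6.31, 6.74 and 6.95 with vehicle, with HSP990 replicate 5 at the top, and rose by 0.50 ± 0.09 (adjusted p = 0.0013). Ppp1r15a, which reverses the block of translation, Slc7a1, an arginine transporter, and Atf3 rose by 0.33, 0.34 and 0.35 (adjusted p = 0.016, 0.024 and 0.021), and the calls of Ppp1r15a and Atf3 were lost in 1 and 2 of the fits without an array. Atf4, Ddit3, Trib3 and Asns were not called, with changes of 0.06, 0.12, 0.07 and 0.15 (adjusted p = 0.847, 0.585, 0.753 and 0.329). In the fit of R6/2 arrays alone 3 of the 24 rose. Of 19 aminoacyl-tRNA synthetases, which the same program is known to regulate, only Aars was called, and its rise of 0.43 (adjusted p = 0.027) was lost in 4 of the 15 fits without an array.

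In other branches of protein quality control few genes were called. Of 39 proteasome genes 2 rose, Psmc2 by 0.32 (adjusted p = 0.0055) and the activator Psme4 by 0.23 (adjusted p = 0.026), with a list median of 0.06. Of 28 ubiquitin, autophagy and lysosome genes Atg7 and Nploc4 rose, by 0.35 and 0.21 (adjusted p = 0.015 and 0.032). Of 15 targets of the antioxidant factor NRF2 Gclm alone passed the threshold (0.28, adjusted p = 0.049), and Hmox1 was not called (0.14, adjusted p = 0.456). The median of the NRF2 list was 0.14 against 0.02 over all genes, and 12 of its 15 changes were positive. None of 21 ribosome biogenesis genes was called. Of 19 splicing regulators Srsf6 rose by 0.49 ± 0.09 (adjusted p = 0.0017) and Clk2 by 0.22 (adjusted p = 0.047). The calls of Psme4, Atg7, Nploc4, Gclm and Clk2 were each lost in some of the fits that left out 1 array, 3, 1, 7, 9 and 10 of 15.

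Several of the largest rises lay outside the chaperone lists. Rab39, a dim gene that encodes a small GTPase of vesicle traffic, measured 5.50, 5.90 and 6.38 with HSP990 and 3.55, 3.94 and 4.48 with vehicle, a gap of more than 1 log2 unit between the groups. It rose 3.84-fold (1.94 ± 0.15, adjusted p = 6.0e-11). Cyp2s1, a cytochrome P450, measured 7.38, 8.02 and 8.38 with HSP990 and 6.06, 6.68 and 6.78 with vehicle and rose 2.82-fold (1.49 ± 0.17, adjusted p = 3.7e-07). Tnfsf9, a dim gene for the ligand of the immune receptor 4-1BB, rose 2.34-fold (1.22 ± 0.11, adjusted p = 1.2e-09) without overlap. Swt1, an RNA endonuclease, and Dedd2, a protein with a death effector domain, rose 2.09-fold and 2.06-fold (adjusted p = 4.4e-10 and 1.7e-08), again without overlap. Dedd2 was lowest in vehicle replicate 7, at 6.17 where the rest of the group ran from 6.52 to 6.76, and rose by 0.97 without it.

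Other rises within the 20 largest were of 1.84-fold to 2.15-fold. Jun, a subunit of the transcription factor AP-1, measured 8.09, 8.63 and 9.22 with HSP990 and 6.88, 7.07 and 8.80 with vehicle, and vehicle replicates 4 and 7, at 8.26 and 8.80, reached into the treated range. Its rise of 1.10 ± 0.22 (adjusted p = 0.0028) was 1.32 without vehicle replicate 7. The adjusted p was 0.064 in the fit of R6/2 arrays alone and 0.234 with the mean of the probe sets of Jun. Of 12 AP-1 genes only Jun and Atf3 were called, and Fos was at -0.05 (adjusted p = 0.967). Synpo2, an actin-binding partner of BAG3, rose 2.02-fold (adjusted p = 0.0011) with overlapping groups, and Cys1, a protein of the primary cilium, 2.00-fold (adjusted p = 1.6e-06) without overlap. Trim17, a ubiquitin ligase, rose by 0.92 ± 0.18 (adjusted p = 0.0025), the dim Calhm6 by 0.91 ± 0.14 (adjusted p = 0.00011) and the dim zinc finger gene Zfp820 by 0.90 ± 0.16 (adjusted p = 0.00074). Pou4f1, a transcription factor known from sensory and habenular neurons, ran from 5.29 to 6.86 with HSP990 and from 4.12 to 7.08 with vehicle, and its rise of 0.97 ± 0.28 (adjusted p = 0.047) was lost in 11 of the 15 fits without an array.

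A pair of the 20 largest rises serve collagen maturation in the ER. P4ha2, a subunit of prolyl 4-hydroxylase, measured 7.43, 7.71 and 8.07 with HSP990 and 6.53, 6.89 and 7.03 with vehicle and rose 1.89-fold (0.92 ± 0.10, adjusted p = 1.5e-07). Serpinh1, the collagen chaperone HSP47, measured 7.49, 7.81 and 8.28 with HSP990 and 6.64, 7.08 and 7.23 with vehicle and rose 1.84-fold (0.88 ± 0.16, adjusted p = 0.0012). Neither gene's groups overlapped. Plod1, a lysyl hydroxylase that modifies collagen, was looked up after these values were seen and rose by 0.85 ± 0.14 (adjusted p = 0.00018), also without overlap.

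The glucocorticoid receptor, which turns on genes when it binds corticosterone, is folded and held ready for hormone by HSP90 and its immunophilins. Of 26 of its targets 8 fell and none rose, 2 of the 26 changes were positive, and the median was -0.40 against 0.02 over all genes. Zbtb16, a zinc finger factor induced by glucocorticoids, had the largest fall among the called genes that were named. It measured 6.21, 6.52 and 7.34 with HSP990 and 6.80, 7.94 and 9.31 with vehicle, and fell 2.41-fold (-1.27 ± 0.32, adjusted p = 0.023). Its groups overlapped, and without vehicle replicate 7 the fall was 1.03 with an adjusted p of 0.084.

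Mfsd2a, a lipid transporter of brain endothelium, measured 6.84, 7.23 and 7.58 with HSP990 and 7.34, 8.03 and 8.10 with vehicle and fell 1.58-fold (adjusted p = 0.00037). Nfkbia, the inhibitor of NF-kappa-B, measured 9.42, 9.71 and 9.85 with HSP990 and 9.88, 10.35 and 10.77 with vehicle, without overlap, and fell 1.59-fold (adjusted p = 0.0021). Per1, a clock gene with a glucocorticoid response element, measured 7.80, 8.04 and 8.31 with HSP990 and 8.41, 8.59 and 9.08 with vehicle, again without overlap (-0.60 ± 0.12, adjusted p = 0.0024). Sgk1, a kinase, ran from 8.93 to 9.60 with HSP990 and from 8.70 to 10.73 with vehicle and fell by 0.75 ± 0.21 (adjusted p = 0.037), a call lost in 9 of the 15 fits without an array. Hif3a, Klf9 and Tsc22d3 (also known as GILZ) fell by 0.42, 0.30 and 0.54 (adjusted p = 0.028, 0.032 and 0.033), and the calls of Hif3a and Klf9 were lost in 4 and 6 of those fits. Fkbp5, Cdkn1a and Ddit4 were not called, with changes of -0.35, -0.54 and -0.51 (adjusted p = 0.292, 0.369 and 0.234), and Dusp1 was at 0.09 (adjusted p = 0.716).

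Corticosterone varies between mice and through the day, and by the labels dosing took place in the afternoon, with dissection usually near the close of the light phase. The mean over all 26 targets was 7.60 to 8.10 with HSP990 and 7.64 to 8.58 with vehicle, with overlap. Averaged over the 8 falling targets, which were picked by their fall, the treated arrays lay 0.33 (replicate 4) to 0.82 (replicate 1) log2 units under the vehicle mean. The vehicle arrays ranged from -0.45 (replicate 4) to 0.37 (replicate 7), so the groups overlapped for this average. Without HSP990 replicate 1 the count of falling targets was 3, without HSP990 replicate 3 or vehicle replicate 7 it was 4, without vehicle replicates 2, 3 or 6 it was 5, and the fit of R6/2 arrays alone called 4. No hormone level was measured here.

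Kruppel-like factors are zinc finger regulators, several of which answer to hormones and blood flow. Of 15 measured 4 fell and none rose, with a median of -0.30, against 0.918% falling genes and a median of 0.02 over all genes. Klf9 is among these falls and is also counted among the glucocorticoid receptor targets above. Klf4 measured 4.90, 5.08 and 5.33 with HSP990 and 5.77, 6.14 and 6.55 with vehicle and fell 2.01-fold (-1.01 ± 0.10, adjusted p = 6.2e-08). Klf2, which is prominent in endothelium under flow, measured 4.72, 4.99 and 5.59 with HSP990 and 5.84, 6.16 and 6.55 with vehicle and fell 2.09-fold (-1.07 ± 0.12, adjusted p = 2.2e-07). Both are dim genes, their groups did not overlap, and both were called in every fit that left out an array. Klf13 fell by 0.33 (adjusted p = 0.041), but vehicle replicate 7 stood at 10.76 where the rest of the group ran from 10.00 to 10.20, and without it the adjusted p was 0.126. The call of Klf13 was lost in 10 of the 15 fits without an array, and with a replicate block or the 3' difference as a covariate. Without HSP990 replicates 1, 3 or 8 or vehicle replicates 6 or 7, and in the fit of R6/2 arrays alone, 2 factors of the list fell, and without vehicle replicate 1 the count was 7.

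Cell markers were examined beside these falls. Of 18 endothelial markers Flt1 rose by 0.31 (adjusted p = 0.024), a call lost in 4 of the 15 fits without an array, and Cldn5, a tight junction protein, fell by 0.73 ± 0.21 (adjusted p = 0.048), with a list median of 0.06. The mean over the 18 markers was 7.34 to 7.52 with HSP990 and 7.31 to 7.51 with vehicle. The call of Cldn5 was lost in 12 of those fits. Among 14 astrocyte markers Glul and Fgfr3 fell by 0.24 and 0.32 (adjusted p = 0.047 and 0.049), calls lost in 10 fits each. No member was called among 18 microglial, 16 myelin, 5 oligodendrocyte precursor, 10 mural, 14 interneuron, 11 thalamic and hypothalamic, 10 cortical, 12 choroid plexus or 4 red blood cell markers. The cortical and choroid plexus medians were -0.26 and 0.41, and the mean over the choroid markers was 7.44 and 7.49 in HSP990 replicates 2 and 8 against 5.16 to 6.30 in the other R6/2 arrays.

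Medium spiny neurons make up most of the striatum. Of 29 medium spiny neuron markers 2 fell, none rose and the median was 0.02. Drd1, the dopamine D1 receptor, measured 8.97, 9.64 and 9.99 with HSP990 and 9.44, 10.43 and 10.91 with vehicle and fell 1.74-fold (-0.80 ± 0.16, adjusted p = 0.0024). Gpr6, a receptor of the spiny neurons that carry D2 receptors, measured 7.63, 8.71 and 9.53 with HSP990 and 8.34, 9.86 and 10.43 with vehicle and fell 2.01-fold (-1.01 ± 0.22, adjusted p = 0.0075). The groups overlapped for both genes, and in the fit of R6/2 arrays alone the adjusted p was 0.064 for Drd1 and 0.123 for Gpr6. Drd2, Penk, Tac1, Ppp1r1b and Rgs9 were not called, with changes of -0.02, 0.01, 0.08, 0.28 and 0.02 (adjusted p of 0.609 or more). In whole tissue fewer cells of a type and less RNA per cell cannot be told apart. With the cortical marker mean of each array as a covariate, added after that mean was seen, Drd1 and Gpr6 fell by 0.88 and 1.10.

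Several regulators of signalling in neurons fell. Htr4, a dim gene for a serotonin receptor, measured 3.42, 3.55 and 3.98 with HSP990 and 4.12, 4.44 and 7.28 with vehicle, and fell 2.26-fold (-1.17 ± 0.30, adjusted p = 0.024). In the fit of R6/2 arrays alone its adjusted p was 0.140. The highest value was vehicle replicate 7, and without it the fall was 0.76 (adjusted p = 0.022). Plk2, a kinase induced by synaptic activity, measured 9.54, 9.72 and 9.95 with HSP990 and 10.18, 10.56 and 11.01 with vehicle, without overlap, and fell 1.71-fold (-0.78 ± 0.11, adjusted p = 4.0e-05). Kcnv1, a modifying subunit of potassium channels, measured 6.23, 6.47 and 7.37 with HSP990 and 6.88, 7.49 and 7.95 with vehicle and fell 1.83-fold (adjusted p = 0.0020). Rgs2, which shortens G protein signals, fell by 0.49 ± 0.11 (adjusted p = 0.012), a call lost with the mean of its probe sets (adjusted p = 0.089).

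Dusp6 and Spry2, feedback inhibitors of the ERK kinase pathway, were the 2 of 14 such genes that fell. Spry2 fell by 0.53 ± 0.11 (adjusted p = 0.0026), and Dusp6 by 0.74 ± 0.20 (adjusted p = 0.031). The call of Spry2 was lost with the mean of its probe sets (adjusted p = 0.117). Dusp6 measured 9.59 in vehicle replicate 7 and 7.74 to 8.51 in the other vehicle arrays, and the call was lost without that array (-0.55, adjusted p = 0.102), and in 7 of the 15 fits without an array in all. Pcdh20, a protocadherin, measured 9.73 in vehicle replicate 7 and 6.88 to 7.85 in the others, and its fall of 0.88 (adjusted p = 0.044) was likewise lost (-0.55, adjusted p = 0.082) and was lost in 10 of those 15 fits in all. Of 26 activity-induced genes Plk2 fell and Gadd45b rose by 0.49 ± 0.09 (adjusted p = 0.00090), and Fos, Arc, Egr1, Nr4a1 and Npas4 were not called (adjusted p of 0.298 or more). None of 30 glutamate and GABA receptor genes, 8 sodium channel genes or 29 calcium handling genes was called, and of 38 potassium channel genes Kcnv1 and Kcns2 fell.

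The remaining genes among the 20 largest falls were Rprml, Car7, Ankrd33b, Rbm12b1, Id1, Enc1, Sh3rf2 and Ppp1r3g, at -0.83 to -0.71. Ankrd33b measured 6.92, 7.23 and 7.57 with HSP990 and 7.67, 8.00 and 8.30 with vehicle, and Rbm12b1, an RNA-binding protein, 5.90, 6.12 and 6.45 with HSP990 and 6.52, 6.85 and 7.26 with vehicle. Neither overlapped, with falls of 1.71-fold (adjusted p = 5.7e-06) and 1.70-fold (adjusted p = 8.1e-05). Car7, a carbonic anhydrase of neurons, and Ppp1r3g, which targets a phosphatase to glycogen, fell 1.73-fold and 1.64-fold (adjusted p = 0.0041 and 0.0041). Id1, an inhibitor of transcription factors, fell 1.67-fold (adjusted p = 0.016), with HSP990 replicate 5 far below the others at 5.80 against 7.01 to 7.67. Enc1, an actin-binding protein, fell 1.66-fold (adjusted p = 0.021) and Sh3rf2 1.66-fold (adjusted p = 0.027), calls lost in 3 and 6 of the 15 fits without an array.

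**Figure D3:**
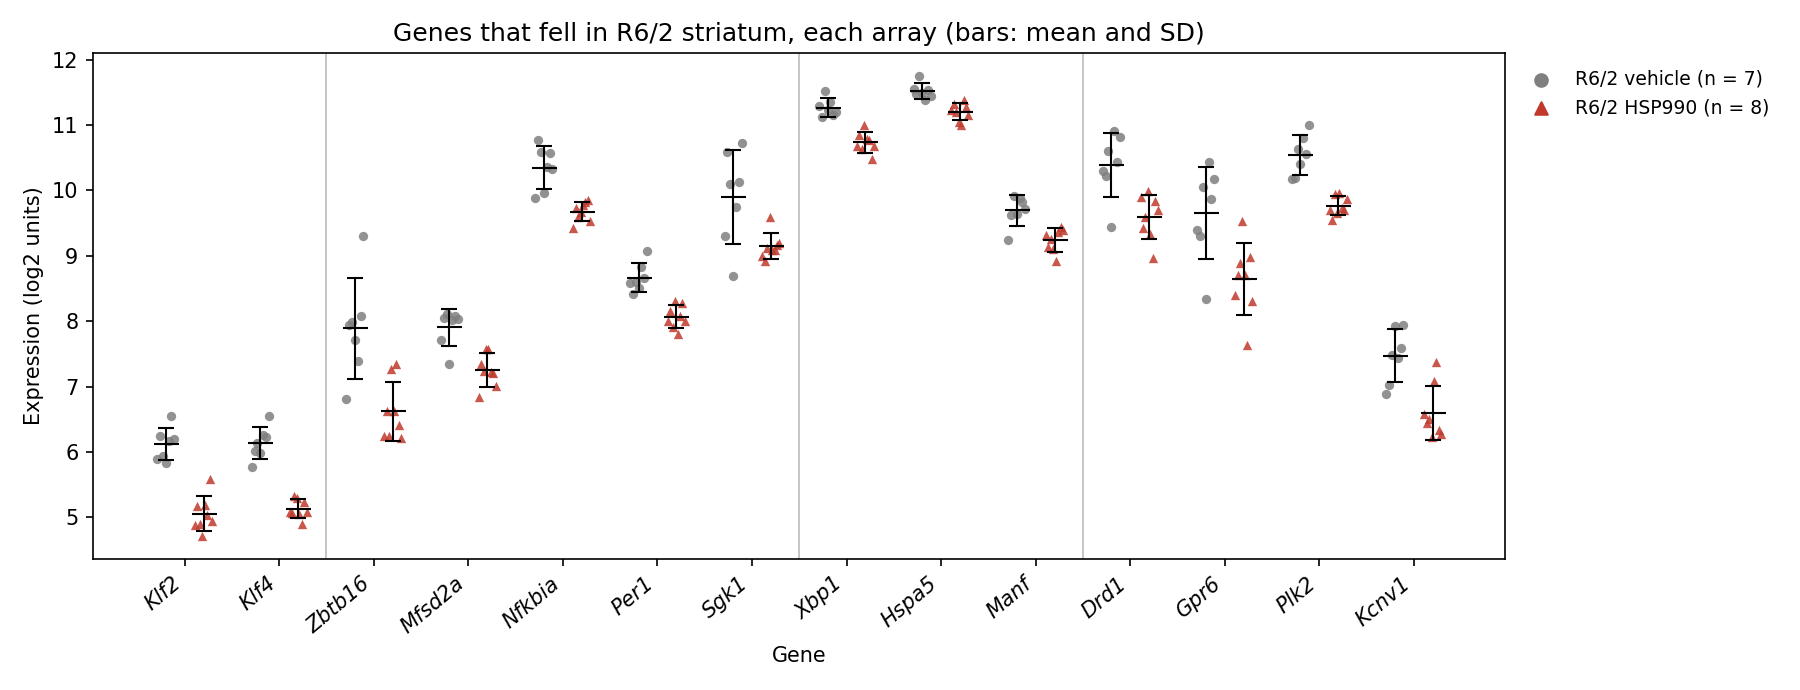
Log2 expression (vertical axis) of 14 genes that fell with HSP990 in R6/2 striatum, with vehicle as grey circles (7 arrays) and HSP990 as red triangles (8 arrays), and black bars for the mean and SD. The groups are apart for Klf2, Klf4, Nfkbia, Per1, Xbp1 and Plk2 and overlap for Zbtb16, Mfsd2a, Sgk1, Hspa5, Manf, Drd1, Gpr6 and Kcnv1.

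Of 35 genes of DNA replication, repair and mitosis, which are quiet in mature neurons, 6 rose, none fell, 32 of the 35 changes were positive and the median was 0.17 against 0.02 over all genes. Rad51ap1, a DNA repair protein, measured 5.73, 6.06 and 6.53 with HSP990 and 4.73, 5.34 and 5.44 with vehicle, without overlap, and rose 1.82-fold (0.86 ± 0.12, adjusted p = 1.7e-05). Cenpe, a motor protein of mitosis, measured 5.51, 5.78 and 5.92 with HSP990 and 5.06, 5.16 and 5.34 with vehicle, also without overlap, and rose 1.45-fold (0.54 ± 0.09, adjusted p = 0.00016). The call of Cenpe was lost with the mean of its probe sets (adjusted p = 0.110). Chek1, a checkpoint kinase, rose by 0.50 ± 0.09 without overlap (adjusted p = 0.00082), Tcf19 by 0.64 ± 0.13 (adjusted p = 0.0033), Mcm5 by 0.50 ± 0.12 (adjusted p = 0.014, lost in 1 of the 15 fits without an array) and Brca2 by 0.33 ± 0.09 (adjusted p = 0.031). Rad51ap1, Cenpe and Chek1 are dim, and without dim genes 3 members of the list rose. The 3' difference, as a covariate, left 4 rises. The mean over all 35 members was 5.62, 5.85 and 6.02 (lowest, median and highest) with HSP990 and 5.52, 5.57 and 5.83 with vehicle. The groups overlapped for this mean, with vehicle replicate 5 the highest vehicle array and HSP990 replicate 6 the lowest treated one.

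**Figure D4:**
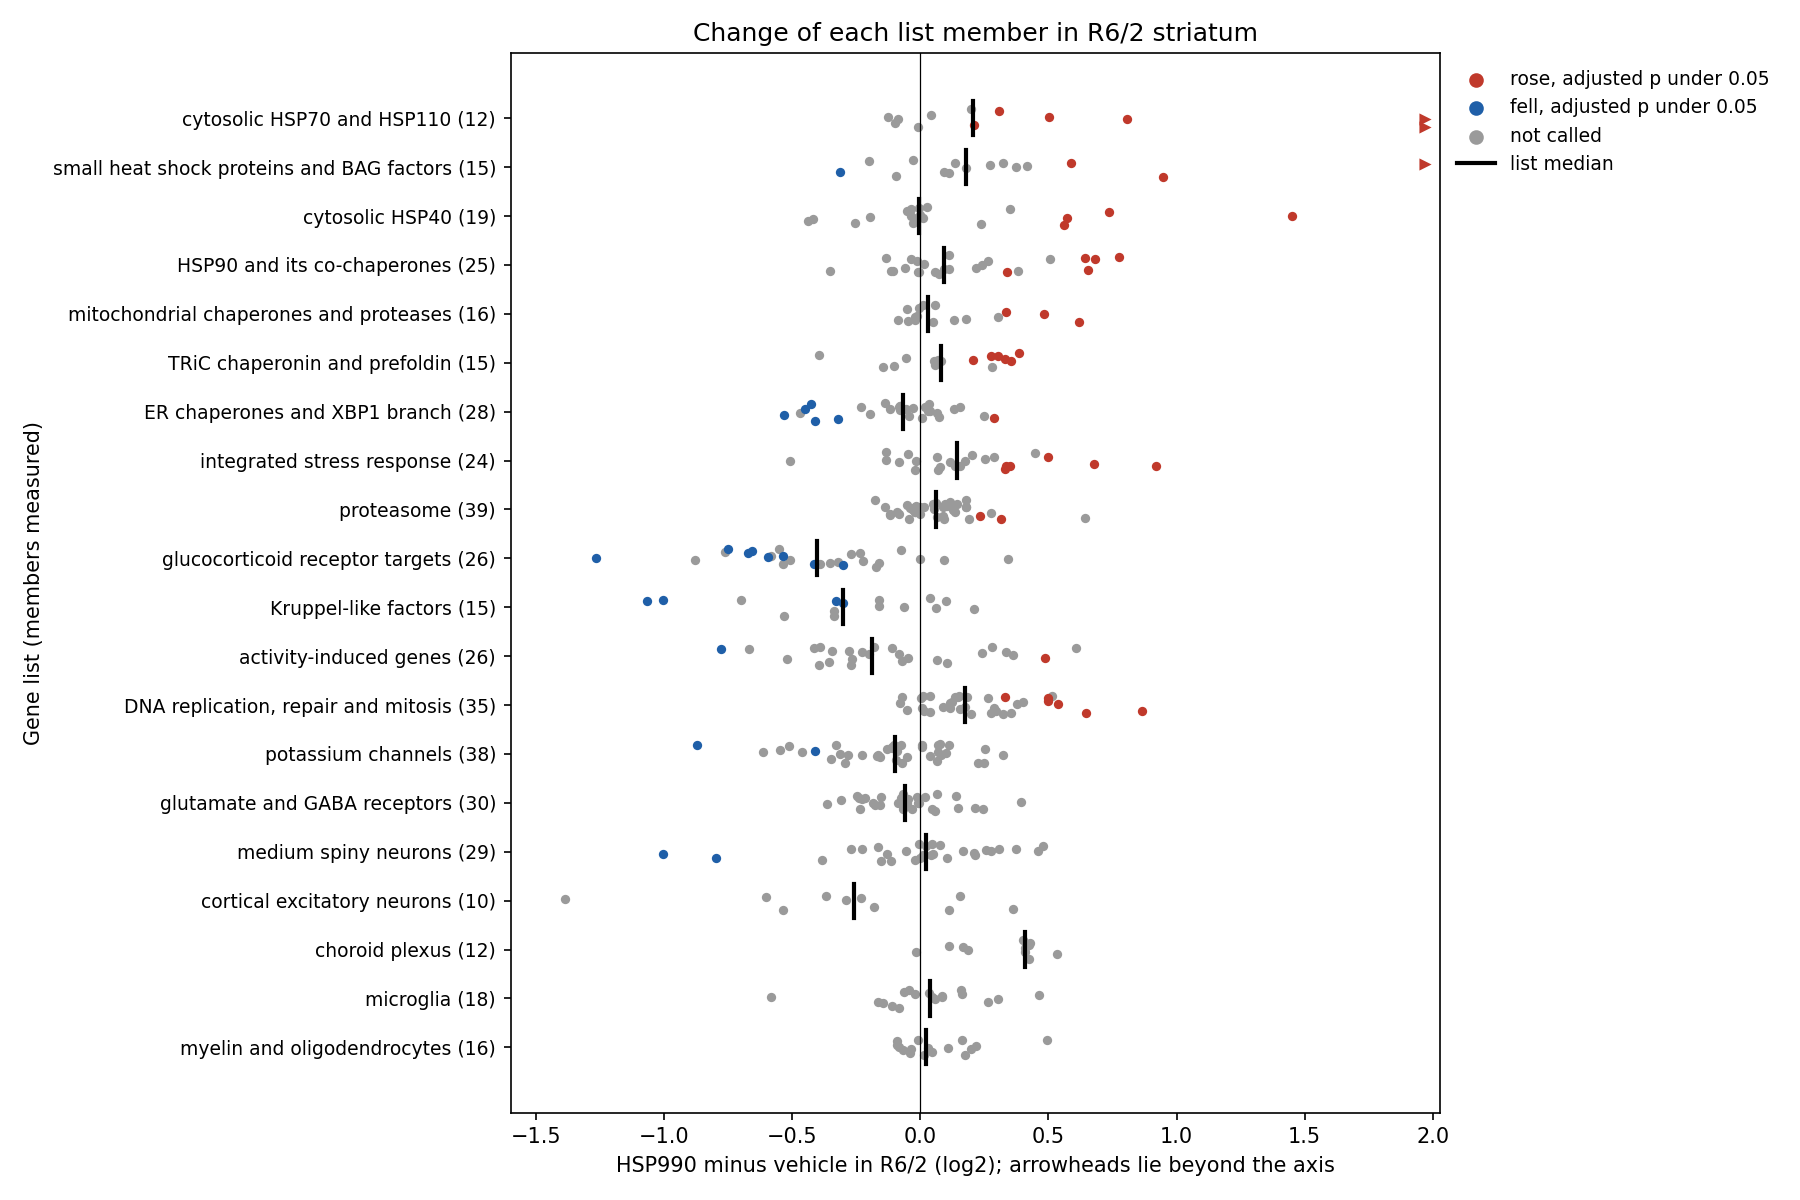
Log2 change with HSP990 in R6/2 striatum (horizontal axis) of every measured member of 20 gene lists (rows), with called rises in red, called falls in blue, other members in grey and the list median as a black line. The glucocorticoid receptor targets and Kruppel-like factors have medians of -0.40 and -0.30, the replication list one of 0.17, and 3 arrowheads mark Hspa1b, Hspa1a and Hspb1 beyond the axis.

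The treatment comparisons in R6/2 and WT share no arrays, but both use the same estimate of spread for each gene. Their calls are therefore not independent, and the overlaps are a description. In WT striatum HSP990 changed 1056 genes (5.8%), 407 up and 649 down. Of the 396 genes that rose in R6/2 132 also rose in WT (33.3% of the R6/2 rises and 32.4% of the WT rises), and of the 167 that fell 68 also fell in WT (40.7% of the R6/2 falls and 10.5% of the WT falls). The test of the difference itself, the R6/2 change minus the WT change, called 45 genes (0.247%), 31 higher in R6/2 (0.17%) and 14 lower (0.077%). For the 264 R6/2 rises that were not also called as rises in WT, 4 of which fell there, the median change was 0.39 in R6/2 and 0.06 in WT, and 18 of them differed between genotypes by that test. For the 99 falls not also called as falls in WT, 2 of which rose there, the medians were -0.41 and -0.15, and 4 differed. Both sets were picked by a call in R6/2 without the same call in WT. Some gap between these medians is therefore built in, and it shows no difference between genotypes.

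Among the chaperone lists 3 members had a smaller rise in R6/2 and none a larger one. Hspa1a rose by 3.70 in R6/2 and by 5.31 in WT, a difference of -1.61 ± 0.28 (adjusted p = 0.0054). Hspe1 and Hspd1 rose by 0.62 and 0.48 in R6/2 and by 1.30 and 1.16 in WT (differences of -0.68 and -0.67, adjusted p = 0.0029 and 0.0056). The largest other rises did not pass this test. Hspa1b differed by -0.73 ± 0.42 (adjusted p = 0.475), Hspb1 by -0.11 ± 0.17 (0.828) and Dnajb1 by -0.29 ± 0.11 (0.258). The differences of Hspa1a, Hspe1 and Hspd1 were called under every alternative tried for named genes. Arrays were left out in turn only among the R6/2 arrays, so the dependence of these differences on single WT arrays was not tested.

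The replication list differed the other way. None of its 35 members rose in WT and 2 fell, the WT median was -0.04, Cenpe and Tcf19 fell in WT by 0.34 and 0.41, and 4 members had a higher change in R6/2. Cenpe differed by 0.88 ± 0.12 (adjusted p = 0.00036), Tcf19 by 1.06 ± 0.18 (adjusted p = 0.0052), Rad51ap1 by 0.93 ± 0.16 (adjusted p = 0.0056) and Chek1 by 0.66 ± 0.12 (adjusted p = 0.011). With the mean of a gene's probe sets the differences of Cenpe (adjusted p = 0.139) and Chek1 were not called. The difference of Chek1 was also lost with the 3' difference of each array as a covariate. Stil, a centriole protein outside the list, rose by 0.78 in R6/2 and was at -0.05 in WT (difference 0.83, adjusted p = 0.014). Kcns2, a potassium channel subunit, fell by 0.41 in R6/2 and rose by 0.33 in WT (difference -0.74 ± 0.11, adjusted p = 0.0014). Sap30, a histone deacetylase partner, fell by 1.00 in WT and was not called in R6/2 (-0.26, adjusted p = 0.112), and differed by 0.74 ± 0.12 (adjusted p = 0.0031). Mknk2, a kinase of translation control, rose by 0.27 in R6/2 and fell by 0.32 in WT (difference 0.60, adjusted p = 0.0014). The counts of differing genes moved between fits. Without vehicle replicate 1 there were 140 higher and 42 lower genes, without vehicle replicate 3 there were 20 higher, without HSP990 replicate 2 there were 53 higher, and with the 3' difference as a covariate 9 and 7.

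**Figure D5:**
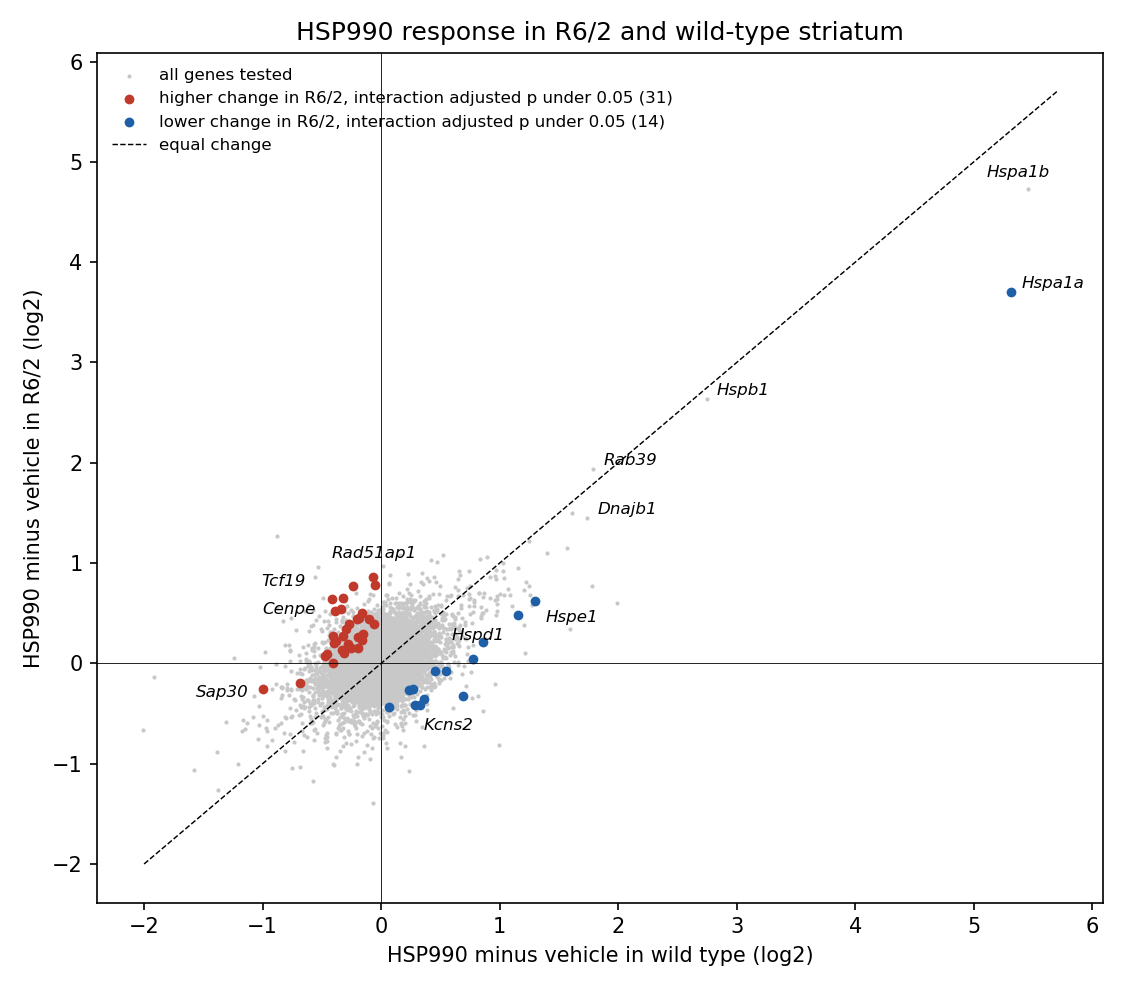
Log2 change with HSP990 in WT striatum (horizontal axis) against that in R6/2 striatum (vertical axis), each point a gene, with the 31 genes whose change was higher in R6/2 in red, the 14 whose change was lower in blue and a dashed line of equal change. Hspa1a, Hspe1 and Hspd1 lie under the line, and Rad51ap1, Tcf19 and Cenpe lie above it.

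Glucocorticoid targets, Kruppel-like factors and ER genes showed no called difference between genotypes. In WT 12 of the 26 glucocorticoid targets fell, with a median of -0.62. The mean over these targets was 9.45 in WT vehicle replicate 4, with the other WT vehicle arrays between 8.05 and 8.44. That array enters the WT changes, the differences and the spread of these genes. No fit of the difference left it out, so its part in these values was not tested. Mfsd2a and Nfkbia fell by 0.66 and 0.67 in R6/2 and by 1.15 and 1.17 in WT, and neither difference passed (0.50 for each, adjusted p = 0.147 and 0.226). Klf2 fell by 1.07 and 1.58 and Klf4 by 1.01 and 1.21 in R6/2 and WT (adjusted p of the differences 0.148 and 0.571). Xbp1 fell by 0.53 and 0.50 (adjusted p = 0.926). Drd1 was at 0.04 in WT and differed by -0.84 ± 0.22 with an adjusted p of 0.084, above the threshold. Hsf2, a heat shock factor, measured 5.04, 5.12 and 5.74 with HSP990 and 5.14, 5.28 and 5.40 with vehicle in R6/2 and was not called (-0.03, adjusted p = 0.950).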

How the data were processed

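Total RNA of striatum was labelled with biotin by a 3' amplification kit and read on Affymetrix arrays, per the labels' protocols. The authors deposited 1 table of log2 values for 45101 probe sets in 32 arrays, whose values and even medians show that it was already normalized. How it was normalized was not given in the sources used here. Probe sets were named through the platform annotation and RefSeq. Of them 34945 had 1 symbol, 932 several and 9160 none, 64 were controls, and only those with 1 symbol were used. The probe set with the highest mean over all arrays stood for each of 18193 genes.

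Group means of the 4 groups were fitted on all 32 arrays with limma 3.58.1 (R 4.3.3), two-sided, with Benjamini-Hochberg adjustment over all genes. The labels name no animals, so p-values measure the spread between arrays, which may be technical. The script was tested on simulated data with known changes in the treated R6/2 arrays. It recovered 26% of changes of 0.25 log2 units, 74% of those of 0.5 and 98% of those of 1. A small change can therefore go uncalled. Tables and figures were made with Python 3.11.15, pandas 2.3.3 and matplotlib 3.10.9. The named genes were the 20 largest rises and 20 largest falls, up to 5 called members per list, the chaperone list members, the 15 genes with the smallest adjusted p for the difference between genotypes, Htt and Hsf2. Other called list members, Plod1 and uncalled genes were named after their values were seen. The comparison and its 46 lists (878 genes measured of 938 entries) were chosen with earlier results of these data known. The rule for printed promoters, chaperones among the 20 largest rises with the 13-letter form, found none, and those shown were chosen after their matches were seen. One heat shock factor gene is not reported here.

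Alternatives were quantile normalization, median centring, leaving out dim genes, the mean of a gene's probe sets, every probe set, R6/2 arrays alone, trended and robust variances, array weights, a replicate block, the 3' difference as a covariate, leaving out arrays with a Gapdh difference over 2, and leaving out each R6/2 array. The cortical marker mean as a covariate was added after the data were seen. Arrays with the same replicate number correlated above 0.1 in 2 of 7 pairs, so the numbers were not taken to pair arrays.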

Additional observations from a re-analysis of the deposited data

Results flagged for a closer look

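For 109 genes the 2 R6/2 groups were searched for an array that stood far from the rest of its group by Dixon's test, 218 groups in all, and 19 were found. Chance alone gives about 1 in 20 groups. Of the 19, 7 were in vehicle replicate 7, 4 in vehicle replicate 1, 4 in HSP990 replicate 5, 2 in vehicle replicate 4, and 1 each in HSP990 replicates 4 and 8. In vehicle replicate 7 Hspa1b was 9.52, Hspa1a 7.82, Htr4 7.28, Pcdh20 9.73, Dusp6 9.59 and Klf13 10.76, each above the other vehicle arrays, and Dedd2 was below them at 6.17. In vehicle replicate 1 Dnaja1 was 11.05, Dnajb4 9.17 and Manf 9.24, each below the other vehicle arrays, and Htt was above them at 9.01. In the same array the 3' difference was 1.46 for Gapdh and 2.76 for Actb, the highest of the vehicle arrays.

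In HSP990 replicate 5, whose Gapdh 3' difference was 5.01, Ahsa2 was 10.15, Mthfd2 7.74 and Psme4 9.46, above the other treated arrays, and Id1 was below them at 5.80. Klf9 at 12.43 and Sh3rf2 at 5.87 were low in vehicle replicate 4, whose medium spiny neuron marker mean of 9.10 was the lowest of the vehicle arrays. Sgk1 was high in HSP990 replicate 4 at 9.60, and Nfkbib low in HSP990 replicate 8 at 7.11. The part of RNA quality and of dissection in these values was not tested.

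The change with HSP990 differed between R6/2 and WT, by the limma test of the difference itself, for 16 named genes. The R6/2 change minus the WT change was positive for Tcf19 (1.06), Rad51ap1 (0.93), Cenpe (0.88), Stil (0.83), Sap30 (0.74), Chek1 (0.66), Hr (0.64), Fbxo28 (0.60), Mknk2 (0.60), St6galnac4 (0.41), Psme4 (0.39) and Rcan1 (0.35). It was negative for Hspa1a (-1.61), Kcns2 (-0.74), Hspe1 (-0.68) and Hspd1 (-0.67). Of these 16 the call was kept under every alternative run for Hspa1a, Hspd1, Hspe1, Kcns2, Mknk2, Rad51ap1, Sap30 and Tcf19. None of these alternatives left out each WT array in turn.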

How the results depend on the processing

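Of 103 named genes called for HSP990 in R6/2, 50 kept the call under every alternative run for them and 53 lost it under at least 1. There were 26 such alternatives, 25 for dim genes. The 396 rises became 151 with R6/2 arrays alone, 226 with the 3' difference as a covariate and 217 to 736 when 1 R6/2 array was left out. The 167 falls became 51 with R6/2 arrays alone, 281 with array weights and 92 to 307 without 1 array. Among the fits without 1 array, the lowest counts of rises and falls were those without vehicle replicate 7 and the highest those without vehicle replicate 1. The share of rises among calls was 70.3% and the counts under quantile normalization were 319 up and 207 down, and under median centring 297 and 185. The 31 genes with a higher change in R6/2 than in WT became 17 with quantile normalization, 105 with array weights, 9 with the 3' difference as a covariate, 15 without arrays of a Gapdh difference over 2, 51 with the cortical marker mean as a covariate and 20 to 140 without 1 array. The 14 with a lower change became 39 with the mean of probe sets, 32 with every probe set, 45 with array weights, 7 with the 3' difference, 26 with the cortical marker mean and 11 to 42 without 1 array. With a replicate block 444 genes rose and 142 fell, and the higher and lower differences numbered 15 and 8. The cause was not tested. The uncalled change of Hsf2 ranged from -0.098 to 0.0026 without 1 array, changing sign without HSP990 replicates 1 (0.0017) and 2, and the difference of Rcan1 was -0.099 with the mean of probe sets. No fit of R6/2 arrays alone exists for the difference between genotypes. Arrays give no depth, and dim genes lie near background, where changes are compressed.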

Other observations

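The groups in this section were chosen after their values were seen, and their counts support nothing further. Besides the replication list, other genes of chromosome segregation and DNA repair rose in R6/2 with HSP990. Cenpk, a kinetochore protein, rose by 0.79 (limma, adjusted p = 8.7e-05), Rad54b, a recombination factor, by 0.67 (adjusted p = 0.00081), Cks2, a partner of cell cycle kinases, by 0.70 (adjusted p = 0.012) and Esco2, which acetylates cohesin, by 0.40 (adjusted p = 0.00070). Sgo2a, a protector of cohesin, rose by 0.45 (adjusted p = 0.0061) and differed from WT by 0.64 (adjusted p = 0.026). Cenpk, Rad54b, Cks2 and Esco2 were not called for the difference from WT. Rad54b also rose in WT, by 0.65 (adjusted p = 0.00038). Cenpk, Cks2 and Esco2 were not called there, at 0.36, -0.21 and 0.06. All of these genes but Cks2 are dim.

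Synaptic adhesion and scaffold genes were among the falls. Lrrtm1 and Lrrtm4, adhesion proteins of excitatory synapses, fell by 0.65 and 0.59 (adjusted p = 0.022 and 0.020). Lrrc4 fell by 0.41 (adjusted p = 0.030) and the anchoring protein Akap5 by 0.54 (adjusted p = 0.0061). The treated and vehicle arrays overlapped for each of Lrrtm1, Lrrtm4, Lrrc4 and Akap5. Usp2, a ubiquitin protease, measured 8.29, 8.51 and 8.89 with HSP990 (lowest, median and highest) and 8.89, 9.22 and 9.55 with vehicle, and fell by 0.69 (adjusted p = 5.8e-05). Cacybp, which binds HSP90 and a ubiquitin ligase, rose by 0.68 in R6/2 (adjusted p = 0.00016) and by 1.25 in WT.

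Among 336 genes with a Zfp symbol, the family name of many zinc finger genes, 21 rose (6.25%, against 2.18% of all genes) and 6 fell, with a median of 0.08. In WT 14 rose and 15 fell. Without vehicle replicate 7 the R6/2 count of rises was 11, without HSP990 replicate 5 it was 14, and with R6/2 arrays alone it was 10.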
